A study of Mus musculus with 3 samples.

Results

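The heavy minus light difference compares the log2 ratio between the siRNAs (Eif4g3 over control) in heavy polysomes with that in light polysomes, as the first less the second. It was formed for every gene with at least 1 probe well above background in both dyes on both arrays, which held for 13686 of the 27745 gene names on the array, through 20048 of 41174 probes. Stromal cells cultured from lymph nodes of BALB/c mice received 400 pmol of either siRNA by lipofection, and the lysate of 7 pooled plates per siRNA was run on a 10% to 60% sucrose gradient at 48 h. The first group was Eif4g3 siRNA cells (labelled with Cy5) and the second was control siRNA cells (labelled with Cy3), each represented by RNA of heavy polysomes, light polysomes and the top of the gradient. Every fraction had 1 array of both dyes, with no dye swap and no replicate, so siRNA and dye, and fraction and array, cannot be told apart, and no p-value was computed. The cells of each siRNA were 1 pool on 1 gradient, so a difference between the gradients or in how their fractions were pooled cannot be told apart from the siRNA either.

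An mRNA's place in a sucrose gradient depends on how many ribosomes it carries, which depends on how often translation starts on it and on how long its coding sequence is. Short coding sequences hold few ribosomes and sediment in light polysomes even when well translated, and long ones sediment in heavy polysomes. Eif4g3 encodes eIF4GII, a scaffold that joins the cap-binding protein, the helicase eIF4A and the small ribosomal subunit when translation starts. A gene below 0 in the heavy minus light difference had, in Eif4g3 siRNA cells, less of its polysomal signal in the heavy fraction than in control cells, and a gene above 0 had more. All levels are relative to the other genes on the same array, so a general loss of heavy polysomes would not appear in these values.

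The labelled cell type was checked against markers. Of the fibroblastic stromal markers on the array, 13 of 18 were measured on both arrays, as were 8 of 10 markers of smooth muscle and pericytes. Of markers of other cells, 5 of 15 endothelial, 8 of 20 leukocyte and 2 of 8 epithelial genes were measured. The defining endothelial genes Pecam1 and Cdh5, the leukocyte gene Ptprc and the reticular cell chemokine gene Ccl19 were not well above background on both arrays. The medians of the difference were -0.26 for fibroblastic, -0.22 for smooth muscle, 0.06 for endothelial and 0.11 for leukocyte markers. With median centring the endothelial and leukocyte medians were 0.77 and 0.76, and over bright probes alone the endothelial one was -0.42. The part of cell composition in the results was not tested. In bulk RNA, fewer cells of a type and less RNA per cell cannot be told apart. Before normalization the light array was brighter for Eif4g3 siRNA (upper-quartile signal 686) than for control siRNA (287.5), and the heavy array dimmer for Eif4g3 siRNA (367) than for control siRNA (1078).

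The siRNA target checked the labels. Eif4g3 had background-subtracted intensities of 868 for Eif4g3 siRNA and 8325 for control siRNA in heavy polysomes, against 1425 and 1322 in light polysomes, where the typical gene was brighter in the Eif4g3 siRNA dye. After normalization its log2 ratio was -1.77 ± 0.19 in heavy and -1.06 ± 0.16 in light polysomes, where the error is the scanner software's for the spots and covers no biological replication. The difference was therefore -0.71 ± 0.25, short of 2-fold, and its probes on chromosome 4 gave -0.68 (137475547 to 137478087, plus strand, mm8) and -0.73 (137478284 to 137478343). With median centring in place of loess the difference was -1.09, past 2-fold. The Eif4g3 mRNA that was measured lay less far on the heavy side, with a heavy over light log2 signal of 0.23 in Eif4g3 siRNA cells and 0.94 in control cells. Eif4g1, which encodes the related scaffold eIF4GI, had a difference of -0.53 ± 0.22 from -0.38 in heavy and 0.15 in light polysomes, with probes at -0.78 and -0.28. Eif4g2, which encodes a related protein without the site for the cap-binding protein, had 0.19 ± 0.15, or -0.21 with median centring, and its 4 probes lay on both sides of 0, between -0.11 and 0.59.

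Few genes differed by 2-fold, and most of those that did lay below 0. At a log2 difference of 1 or more, 14 genes were higher (0.102% of all measured), and at -1 or less, 86 genes were lower (0.628%). Other scalings called more genes and a larger share of higher ones: 63 higher and 138 lower with a normexp offset of 0, 115 and 170 with the software's own ratio, 134 and 155 with loess on processed signals, and 1127 and 432 with median centring. The median over all 13686 genes was -0.02, with 52.9% below 0, an SD of 0.34 and 5th and 95th percentiles of -0.61 and 0.48. Within the arrays, the median SD of the difference was 0.07 over repeated spots of 132 probes and 0.16 between different probes of the 4796 genes with several, and the median spot error of the difference was 0.29. None of these covers the spread between cultures, gradients or arrays. Of the 86 lower genes, 80 had a ratio below 0 in heavy polysomes and above 0 in light polysomes, 5 were below 0 in both and 1 was above 0 in both. Their median ratio was -0.58 in heavy and 0.55 in light polysomes, and 69 of them passed 2-fold on neither array, so the call came from opposite ratios of moderate size. All 23 of the lower genes with several probes had each probe below 0, and 11 of these had each probe at -1 or below. They were called by the mean of the same probes, so this agreement is largely fixed by the choice. None of the 14 higher genes had several measured probes, and 7 of them had a gene symbol that could be named. At 3-fold the counts were 2 higher and 2 lower; the lower genes were Zbtb20 and Cat, and the higher ones were an unnamed transcript and Rmrp, the noncoding RNA of RNase MRP, which was named after its values were seen (1.65 ± 0.34).

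The lower genes were widely spread in function. Zbtb20, a transcriptional repressor of the zinc finger type, had ratios of -0.25 ± 0.15 in heavy and 1.51 ± 0.18 in light polysomes and the lowest difference of all (-1.75 ± 0.23). Its probes on chromosome 16, from 43538173 to 43538232 and from 43543169 to 43543228 (mm8, plus strand), gave -1.80 and -1.71. Most of the Zbtb20 difference therefore came from the light fraction, and with probes not above background also averaged it was -1.19. Cat, which encodes the peroxisomal enzyme catalase, differed by -1.75 ± 0.31, with -0.64 in heavy and 1.105 in light polysomes, and its probe lies at 103255342 to 103255401 on chromosome 2 (minus strand). The intensities of Cat were 2298 for Eif4g3 siRNA and 9401 for control siRNA in heavy polysomes, against 2843 and 542 in light polysomes. These raw values carry the unequal brightness of the dyes; after normalization the heavy over light signal of Cat was 0.58 in Eif4g3 siRNA cells and 2.33 in control cells on the log2 scale. In the top fraction Zbtb20 and Cat had ratios of 0.19 and -0.03, so neither was far from 0 there.

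Other bright lower genes had various functions. Msn, whose product moesin links actin to the membrane, had 3 probes between -1.60 and -1.17 and ratios of -0.62 in heavy and 0.72 in light polysomes. Dctn1, the large subunit of the dynein activator dynactin, differed by -1.49 ± 0.31, and Capn2, a calpain protease, by -1.35 ± 0.30. Sec31a, of the outer coat of vesicles that leave the endoplasmic reticulum, had -0.61 in heavy and 0.77 in light polysomes. Prpf8, the central scaffold of the spliceosome, had -0.76 in heavy and 0.64 in light polysomes, and its probes gave -1.53 and -1.26. Sf3b4, of the U2 particle of the spliceosome, differed by -1.27 ± 0.31, the splicing helicase gene Dhx15 by -1.12 ± 0.21 and Ints4, of the Integrator complex, by -1.23 ± 0.32. Ttf2, a transcription termination factor, was the exception in position, since it passed to the light side of the average gene in Eif4g3 siRNA cells (-0.15, against 1.21 in control cells). When probes not above background were also averaged, Sf3b4 (-0.70), Ints4 (-0.71) and Ttf2 (-0.70) fell short of 2-fold. Parp1, a DNA damage sensor, Kif20a, a mitotic kinesin, Wdr46, a nucleolar protein, and Abcf2, an ATP-binding cassette protein, had differences of -1.21, -1.12, -1.28 and -1.24.

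Of the 7 higher genes with a usable symbol, 5 were bright enough to be named by rule, and with median centring all 5 fell short of 2-fold, at 0.52 to 0.72. Hist1h2ab (now H2ac4), which encodes a core histone, had 0.90 ± 0.22 in heavy and -0.30 ± 0.21 in light polysomes, a difference of 1.21 ± 0.30. Cox7c, a subunit of cytochrome oxidase, differed by 1.06 ± 0.30. Its intensities were 9345 for Eif4g3 siRNA and 12854 for control siRNA in heavy polysomes, against 19241 and 8672 in light polysomes. Tmsb4x, whose product thymosin beta 4 sequesters actin, had 1.17 in heavy and 0.12 in light polysomes, so both of its ratios lay above 0, and its difference of 1.05 was 0.99 with a normexp offset of 0 or with both arrays on 1 scale. Lyrm2, a mitochondrial protein gene, and Crebzf, a leucine zipper transcription factor gene, differed by 1.03 and 1.0 and were low mainly in light polysomes (-0.65 and -0.72). Each of these genes has 1 measured probe. Among genes with several probes none passed 2-fold in this direction, and the highest by the probe nearest to 0 were Crip1, a LIM domain protein (0.91 ± 0.21), and Rps21, a ribosomal protein (0.90 ± 0.17). Tmsb10, the relative of Tmsb4x, had 0.83 ± 0.21, and the mitochondrial import genes Timm8b and Fxc1 (now Timm10b) had 0.81 ± 0.21 and 0.79 ± 0.21. Uqcrh of complex III (0.73), Pigyl of lipid anchor synthesis (0.80), Mdfi, an inhibitor of myogenic factors (0.78), Ccdc85b (0.80) and the cytokine receptor gene Il11ra1 (0.71) completed that set. Mdfi was dim, with intensities of 90 for Eif4g3 siRNA and 84 for control siRNA in heavy polysomes. Its difference was 1.34 with a normexp offset of 0, 1.29 with median centring and 1.74 with loess on processed signals. The probes of Mdfi overlap each other, as do those of Pigyl. Ctnnbip1, an inhibitor of beta-catenin, was 0.53 in heavy and -0.41 in light polysomes, and Plac9, Ndufa2, Dusp3 and Selm (now Selenom) likewise had ratios above 0 in heavy and below 0 in light polysomes.

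**Figure D1:**
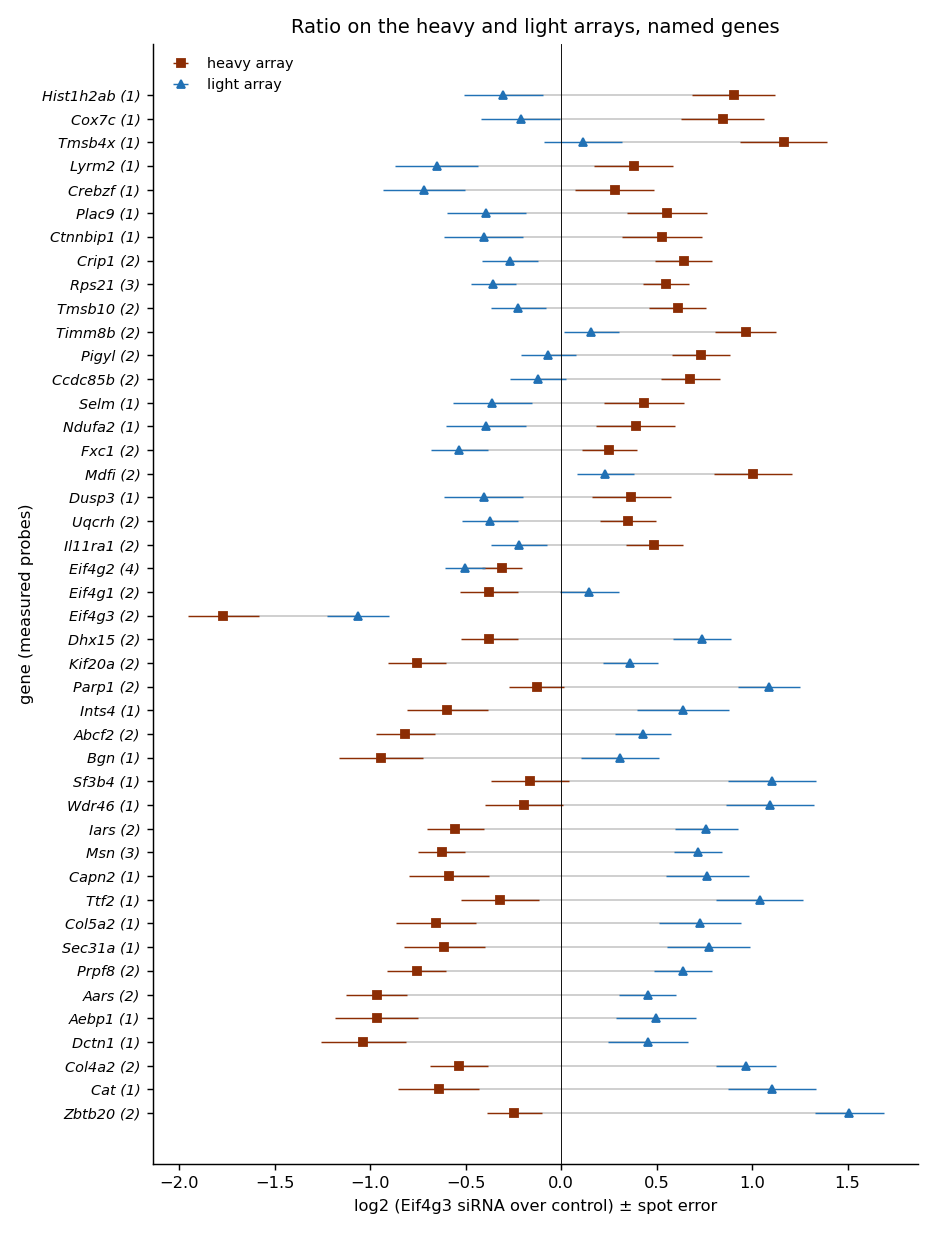
Log2 ratio (Eif4g3 siRNA over control siRNA) on the heavy (squares) and light (triangles) arrays for the named genes, with bars for the scanner software's spot error and the number of measured probes in brackets, ordered by the heavy minus light difference. From Eif4g1 downwards the squares lie left of 0 and the triangles right of it, except for Eif4g3, where both lie below -1.

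The positions of the genes under each siRNA show what the difference is made of. The heavy over light position of a gene is its log2 signal in heavy polysomes less that in light polysomes, taken for each siRNA on a scale common to both arrays, and the siRNA position minus the control position is the heavy minus light difference. Positions had an SD over genes of 0.39 in Eif4g3 siRNA cells and 0.63 in control cells, a ratio of 0.62, and the positions correlated at r = 0.89 over 13686 genes that share arrays and normalization. With median centring in place of loess this correlation was 0.48 and the ratio of SDs 0.68. A position of 1 or more was held by 63 genes in Eif4g3 siRNA cells and by 616 genes in control cells, and one of -1 or less by 313 and 877 genes. The range was thus narrower in Eif4g3 siRNA cells on both sides. Of the 376 genes beyond 1 in either direction in Eif4g3 siRNA cells, 41 lay nearer to 0 on the same side in control cells, and of the 1493 such genes in control cells, 1468 lay nearer to 0 on the same side in Eif4g3 siRNA cells; genes picked for an extreme position in 1 condition tend to lie nearer to 0 in the other. Over all genes, 66.3% lay nearer to 0 on the same side in Eif4g3 siRNA cells. As a description of genes picked by the difference itself, the 86 lower genes had a median position of 0.45 in Eif4g3 siRNA cells and 1.59 in control cells, and 80 of them lay on the heavy side in Eif4g3 siRNA cells. The 14 higher genes had a median of -0.46 in Eif4g3 siRNA cells and -1.72 in control cells.

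**Figure D2:**
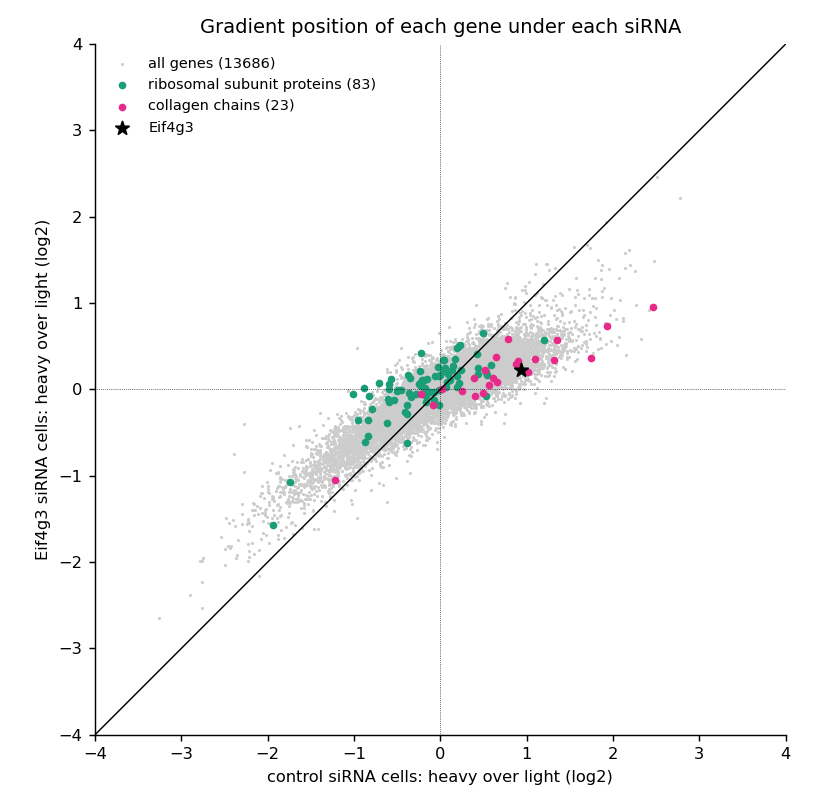
Heavy over light position (log2) of each gene in Eif4g3 siRNA cells (vertical axis) against control siRNA cells (horizontal axis), with the identity line, for 13686 genes. The cloud is flatter than the line (SD 0.39 in Eif4g3 siRNA cells and 0.63 in control cells), collagen chains lie mostly below the line and ribosomal proteins mostly above it, although the ribosomal protein medians turn below 0 when arrays are centred on the median in place of loess. The median over all genes is then -0.095.

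The difference changed steadily along the gradient position. With genes divided into 10 equal groups by the mean of both positions, the median difference was 0.39 in the lightest group, -0.01 in the fifth and -0.51 in the heaviest. In the heaviest group the median ratio was -0.29 in heavy and 0.23 in light polysomes, and in the lightest group it was 0.24 in heavy and -0.13 in light polysomes. Both arrays thus contributed, in opposite directions. That group held 81 of the 86 lower genes and the lightest held 11 of the 14 higher genes. The correlation of the difference with the mean position was -0.73 over 13686 genes, and -0.41 with median centring; the difference and the mean are built from the same 4 signals, so this value restates the unequal spread. In 10 groups by mean signal the median difference stayed between -0.09 and 0.11. Loess on signal within each array draws these medians towards 0, so they say little about brightness. The SD of the difference was 0.19 in the dimmest group and 0.39 in the brightest, and the part of brightness was not tested.

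**Figure D3:**
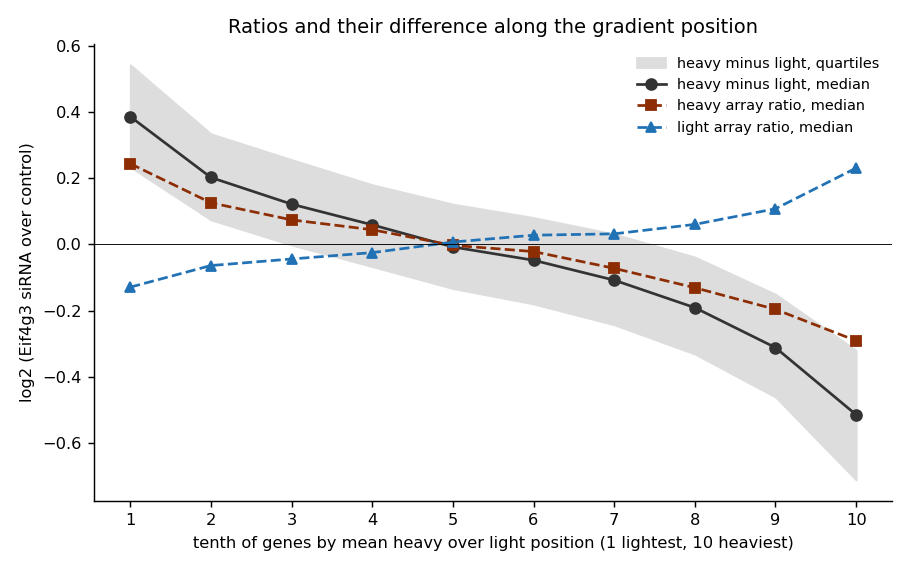
Median heavy minus light difference with its quartiles (circles and band) and median log2 ratio between the siRNAs (Eif4g3 over control) on the heavy (squares) and light (triangles) arrays, by group of genes in mean heavy over light position, 10 groups of equal size. The heavy ratio declines and the light ratio climbs from the lightest to the heaviest group, and the difference runs between 0.39 and -0.51.

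The top fraction gave a second comparison for each polysome fraction. Over the 10632 genes also measured in the top fraction, the SD of light over top was 0.99 in Eif4g3 siRNA cells and 0.79 in control cells. For heavy over top it was 1.12 in Eif4g3 siRNA cells and 1.13 in control cells, and for heavy over light 0.44 and 0.69. The ratios over top used a scale common to all arrays, and heavy over light used one common to the heavy and light arrays. Measured by this spread, the light fraction of Eif4g3 siRNA cells differed more from the top and less from the heavy fraction than that of control cells, while heavy and top differed by nearly the same amount under both siRNAs. The top array was dim, with upper-quartile signals of 39.6 for Eif4g3 siRNA and 40.5 for control siRNA, and the cause of the change was not tested.

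**Figure D4:**
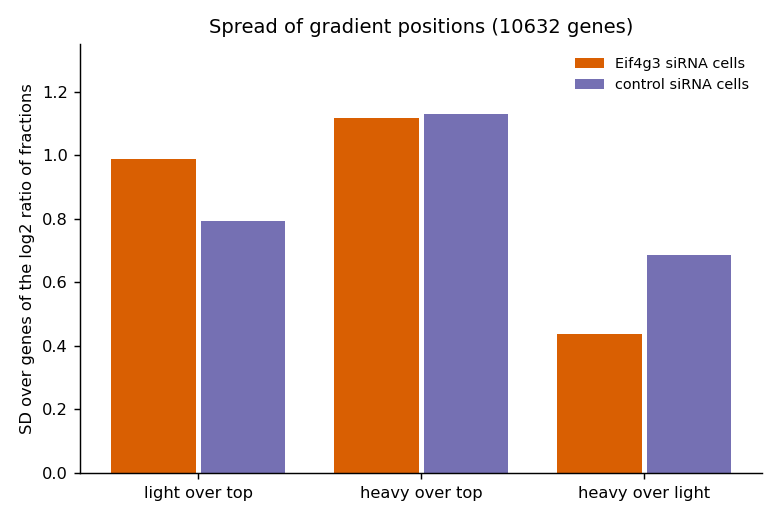
SD over 10632 genes of the log2 ratio of 2 fractions, in Eif4g3 siRNA cells (left bar of each pair) and control siRNA cells (right bar). Ratios over top are on a scale common to all arrays, and heavy over light is on one common to the heavy and light arrays. Eif4g3 siRNA cells have the wider spread for light over top (0.99 and 0.79), the narrower one for heavy over light (0.44 and 0.69) and nearly the same for heavy over top (1.12 and 1.13).

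Among 37 gene lists grouped by function, 27 had a median difference below 0 and 10 above 0, and 16 combined a heavy median below 0 with a light median above 0. All 8 lists with medians of 0.1 or more turned below 0 when arrays were centred on the median in place of loess, a setting that leaves the dye trend of each array in place. The median over all genes was also lower there, -0.095 against -0.02. Complexes II to IV (-0.099) and mitochondrial import (-0.091) lay close to that value, and histones (-0.042) and chemokines (-0.005) above it. The ribosomal subunit, mitochondrial ribosomal and complex I lists lay below it. The lists below 0 kept their direction under that setting for every median at or below -0.1. In the 35 lists with 20 or more members, the correlation of the difference with the mean position ran between -0.92 and -0.49. Over all genes it was -0.73, and -0.41 with median centring. Difference and position are built from the same signals, so the values within lists restate the unequal spread of positions. These values are descriptions, since members share arrays.

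**Figure D5:**
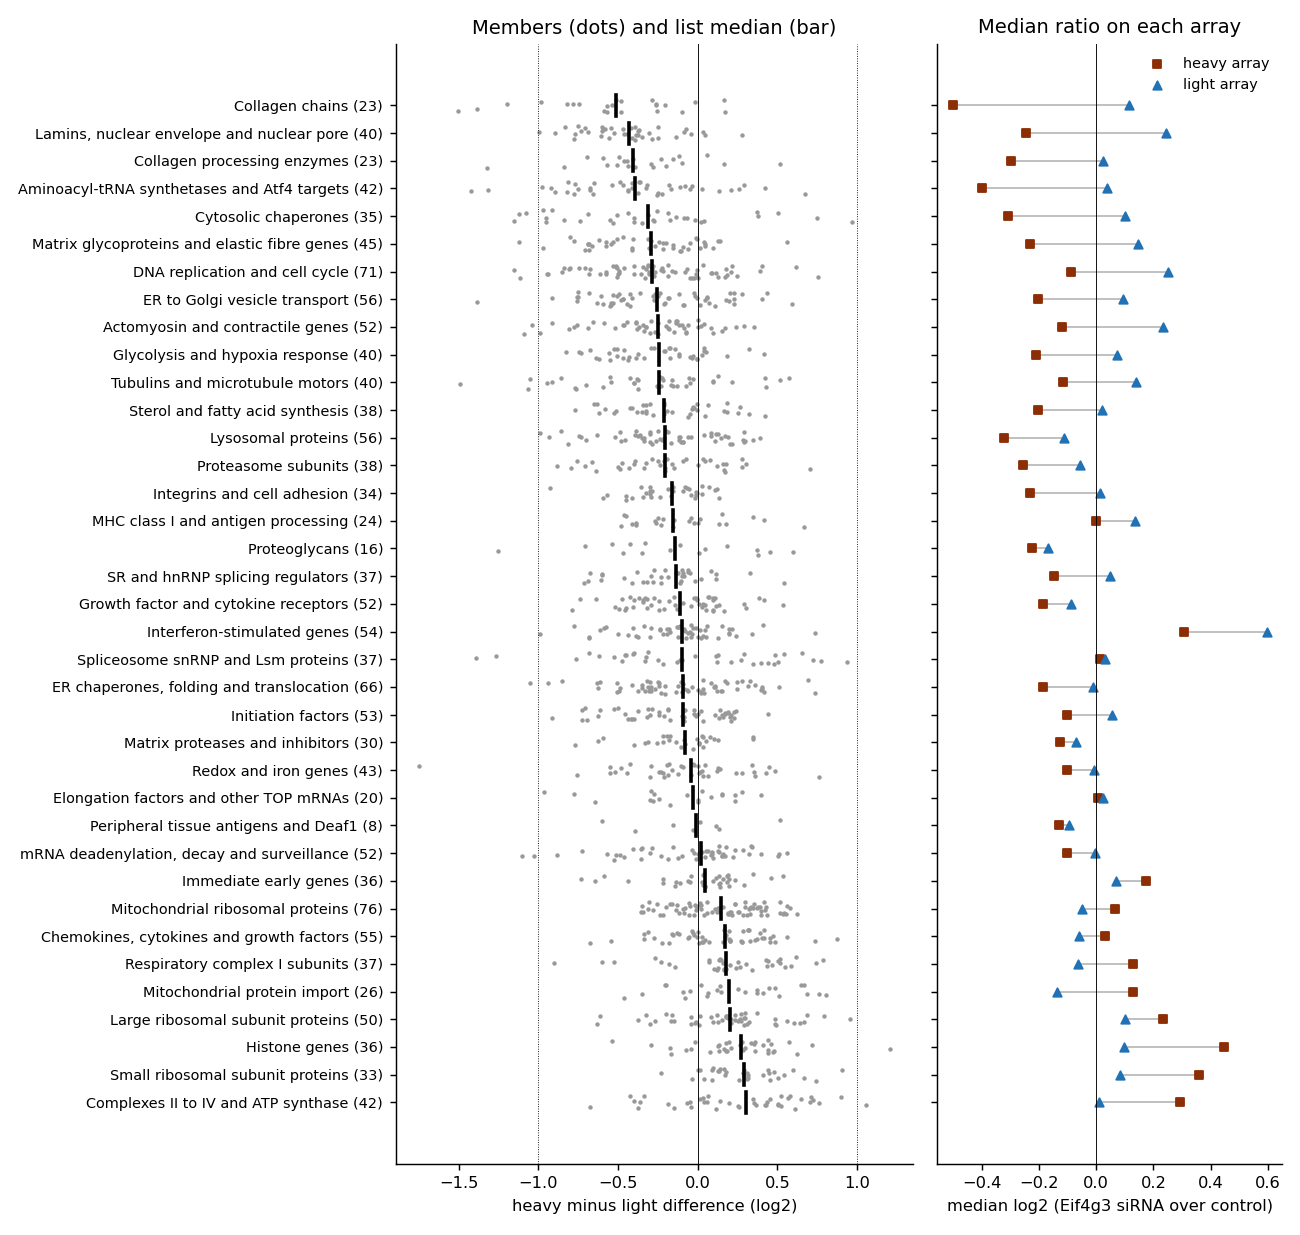
Heavy minus light difference (log2) of each measured member of 37 gene lists (dots) with the list median (bar), and the median log2 ratio between the siRNAs (Eif4g3 over control) on the heavy (squares) and light (triangles) arrays; the number of members is in brackets and dotted lines mark 2-fold. Collagen chains lie lowest (median -0.51) and complexes II to IV with ATP synthase highest (0.30), and the 8 medians of 0.1 or more turn below 0 with median centring in place of loess. The median over all genes is then -0.095, and not all of these lists lie below it.

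Collagen chains, the fibre and network proteins that stromal cells lay down, had the lowest median of any list, -0.51 over 23 measured chains, beside -0.02 over all genes. Of these, 21 lay below 0 (91.3%, beside 52.9% of all genes), 3 were lower at 2-fold (0.628% of all genes) and none was higher. Col4a2, a basement membrane chain, was the lowest. It had probes at -1.16 and -1.85 (chromosome 8, 11448812 to 11448871 and 11448152 to 11448211, mm8, plus strand), ratios of -0.54 in heavy and 0.97 in light polysomes, and a position of 0.95 in Eif4g3 siRNA cells and 2.46 in control cells. Its partner Col4a1 had -0.98 ± 0.21, just short of 2-fold. The fibrillar Col5a2 (-1.38 ± 0.30) and the beaded-filament chain Col6a1 (-1.20 ± 0.30) also fell by 2-fold, and Col6a2 (-0.78), Col1a2 (-0.82) and Col12a1 (-0.75) came next. The abundant type I chain Col1a1 averaged -0.54 over 3 probes that ran between -1.19 and 0.26, so its value depends on the probe. Col3a1, the main reticular fibre chain of lymph nodes, had -0.26 ± 0.21, from -0.50 in heavy and -0.24 in light polysomes. Only Col4a6 (0.17) and Col20a1 (0.17) lay above 0. Set against genes of the same mean position, a comparison added after seeing the data, the collagen median was -0.24, less than the -0.51 above.

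Enzymes and partners of collagen lay lower as well. The collagen processing list had a median of -0.40 over 23 genes, 20 of them below 0, but -0.03 relative to genes of the same mean position, with the lysyl hydroxylase gene Plod1 at -1.32 ± 0.31 and Plod3 at -0.84 ± 0.21. The collagen chaperone gene Serpinh1 lay near 0 (-0.10), and Pcolce2, an enhancer of procollagen cleavage, was the highest (0.52). Matrix glycoproteins had a median of -0.29 (-0.03 relative to genes of the same mean position), with 37 of 45 below 0, led by the laminin chain Lamc1 (-1.12 ± 0.30) and its binding partner Nid1 (-0.97 ± 0.30). Mgp, a matrix protein that inhibits calcification, stood opposite at 0.56. Proteoglycans were mixed, 9 of 16 below 0, although Bgn, which encodes biglycan, fell by 1.25 on the log2 scale, with ratios of -0.94 in heavy and 0.31 in light polysomes, and had -0.69 when probes not above background were also averaged. Aebp1, a collagen-binding carboxypeptidase-like protein, differed by -1.46 ± 0.30. Integrins and other adhesion genes had a median of -0.16. The collagen receptor chain Itga11 (-0.93), the fibronectin receptor chain Itga5 (-0.59), the laminin receptor chain Itga6 (-0.45) and the shared beta chain Itgb1 (-0.45) were the lowest integrins. Itgb3 (0.03), Itgb4 (-0.002) and Itgb5 (0.07) lay near 0. None of the 14 measured integrins passed 2-fold, where 0.102% of all genes were higher and 0.628% lower.

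The aminoacyl-tRNA synthetase and Atf4 target list had a median of -0.39, 35 of 42 below 0, but -0.06 relative to genes of the same mean position. The synthetases were at the low end. Aars, which charges tRNA with alanine, had -0.97 in heavy and 0.45 in light polysomes and a difference of -1.42 ± 0.22, and its isoleucine counterpart Iars differed by -1.31 ± 0.22. When probes not above background were also averaged, Aars had -0.52 and Iars -0.89, both short of 2-fold. Rars (-0.98), Tars (-0.92), Gars (-0.90) and Vars (-0.82) followed without passing 2-fold. Atf4, the stress-induced transcription factor that drives many of them and whose mRNA is held back by upstream reading frames, was the highest member at 0.67 ± 0.30. Its position was -1.004 in Eif4g3 siRNA cells and -1.68 in control cells, and its ratio was lower in light (-0.76) than in heavy polysomes (-0.09). The stress response transcription factor genes Cebpb (0.42) and Ddit3 (0.29) also lay above 0.

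Chaperone genes lay on both sides of 0. Cytosolic chaperones had a median of -0.31, 28 of 35 below 0, but -0.07 relative to genes of the same mean position. The ring chaperonin subunits Cct3 (-1.15 ± 0.30) and Cct6a (-0.97) and the Hsp70 genes Hspa1a (-1.12 ± 0.17) and Hspa8 (-1.08 ± 0.21) were lowest, and the probes of Hspa8 ran between -1.52 and -0.63. The prefoldin subunits Pfdn1 (0.97 ± 0.30) and Pfdn4 (0.75), which hand nascent actin and tubulin to the chaperonin, were highest. Chaperone and translocation genes of the endoplasmic reticulum showed the same span around a median of -0.09. The Hsp70 relative Hyou1 (-1.05) and the signal recognition protein Srp68 (-0.94) were lowest. Sec61g (0.74), of the translocation channel, and Srp9 (0.69) were highest. Genes of vesicle transport from the endoplasmic reticulum to the Golgi had a median of -0.26 over 56 genes, but -0.03 relative to genes of the same mean position. The coat gene Copb1 had -0.91, next to Sec31a, while the SNARE gene Bet1 had 0.59.

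Nuclear envelope and cytoskeletal lists lay below 0. Lamins, nuclear envelope and pore genes had a median of -0.43 (-0.14 relative to genes of the same mean position), and 37 of 40 were below 0. None was lower at 2-fold, beside 0.628% of all genes, and none was higher, beside 0.102%. Cse1l, which exports importin from the nucleus, differed by -0.996 ± 0.24, Nup214 by -0.90 and the lamin gene Lmnb1 by -0.83, the last from ratios of -1.66 in heavy and -0.82 in light polysomes. Emd (0.28), Banf1 (0.05) and Nup50 (0.03) were the members above 0. Actomyosin genes had a median of -0.25, but -0.03 relative to genes of the same mean position. The nonmuscle myosin heavy chains Myh10 (-1.09 ± 0.21) and Myh9 (-1.04 ± 0.30) and the adhesion protein talin, Tln1 (-0.99 ± 0.18), were lowest and the myosin light chain Myl6 (0.35) highest. Tubulins and motors had -0.24, but -0.03 relative to genes of the same mean position. Tuba1b (-1.06) and Tubb2c, now Tubb4b (-1.05), were lower at 2-fold, against the dynein light chains Dynlt3 (0.57) and Dynll1 (0.51). Near-identical tubulin and histone genes can cross-hybridise, so values of single members are uncertain. In DNA replication and cell cycle genes, 55 of 71 lay below 0, led by the spindle proteins Prc1 (-1.15) and Kif20a and the helicase subunit Mcm2 (-0.95). The list median was -0.28, but 0.04 relative to genes of the same mean position. The centromere histone gene Cenpa stood at 0.76.

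Ribosomal protein genes lay above 0 in the main normalization and below it with median centring. In the small subunit list, 31 of 33 genes lay above 0 (93.9%, beside 47.1% of all genes); the median was 0.29, and -0.14 with median centring. The large subunit list had 0.20, with 36 of 50 above 0, and -0.23 with median centring. Both arrays had medians above 0, 0.36 in heavy and 0.08 in light polysomes for the small subunit and 0.23 and 0.10 for the large one. The highest members were Rpl39 (0.96 ± 0.30), Rps21 (0.90), Rpl38 (0.79) and Rps27 (0.74). Rps21 rested on 3 probes between 0.81 and 1.002 and kept 0.43 with median centring. Rpl4 (-0.63) and Rpl3 (-0.61) were lowest. No ribosomal protein gene passed 2-fold, where 0.102% of all genes were higher and 0.628% lower. Pseudogene copies may share probes with these genes. Against genes of the same mean position the medians were 0.24 and 0.18 for small and large subunits.

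Many ribosomal protein and elongation factor mRNAs start with a pyrimidine tract through which mTOR signalling controls their translation. To show that element beside the values, 30 bases around the annotated start (the first base of the transcript is the 16th letter) are given for the 4 highest and 4 lowest members with a tract among 37 ribosomal protein, elongation factor and related genes that have one. Capitals mark the tract, a C followed by at least 4 bases that are each C or T and beginning within 5 bases on either side of the start. A marked tract can therefore begin upstream of the transcript, and in Rpl39 only its last base lies within the transcript. The shares of genes with a tract count such cases too. Letters are from RefSeq on GRCm38.p6, read on the strand of the gene, and the difference of each gene follows the sequences.
Rpl39: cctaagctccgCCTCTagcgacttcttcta
Rps21: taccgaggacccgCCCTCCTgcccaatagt
Rpl38: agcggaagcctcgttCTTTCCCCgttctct
Rps27: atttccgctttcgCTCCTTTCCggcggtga
Vim: tggcgttgtccagtCCTCTgccactcttgc
Eef1a1: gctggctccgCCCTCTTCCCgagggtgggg
Rpl15: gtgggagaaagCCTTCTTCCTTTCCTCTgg
Rpl7a: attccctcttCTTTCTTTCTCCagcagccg
The windows lie at chrX:37085208-37085237 (Rpl39, minus strand), chr2:180257364-180257393 (Rps21, plus), chr11:114668565-114668594 (Rpl38, plus), chr3:90213634-90213663 (Rps27, minus), chr2:13574296-13574325 (Vim, plus), chr9:78481710-78481739 (Eef1a1, minus), chr14:18270972-18271001 (Rpl15, minus) and chr2:26910792-26910821 (Rpl7a, plus).

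These genes were picked for their high or low values, so their span is fixed by the choice. Rpl39, Rps21, Rpl38 and Rps27 lay between 0.74 and 0.96. Vim, the intermediate filament gene of stromal cells, had -0.78 ± 0.31, Eef1a1, the elongation factor that delivers tRNA, -0.64 ± 0.21, Rpl15 -0.37 ± 0.29 and Rpl7a -0.30 ± 0.17. A tract was found at 18.3% of the 32851 starts in the table, and at the start of 23.7% of 9776 measured genes with an entry, 52.0% of 25 small subunit genes and 45.9% of 37 large subunit genes. The median difference was -0.04 for the 2315 genes with a tract and -0.02 for the 7461 without. Within the small subunit it was 0.31 for 13 genes with and 0.29 for 12 without, and within the large subunit 0.27 for 17 with and 0.20 for 20 without, and with median centring the medians of both subunit lists lie below 0. The elongation factor gene Eef2 had -0.96 ± 0.17 and was not among the genes with a tract. Its list had a median of -0.03 with 10 of 20 genes on each side of 0. In that list the median was 0.004 for 7 genes with a tract and -0.24 for 7 without. It was 0.51 for 9 with and 0.22 for 24 without in complexes II to IV with ATP synthase. In collagen chains it was -0.48 for 7 with and -0.50 for 12 without. The window shows the annotated start, which may not be the one used in these cells.

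Mitochondrial lists lay above 0 under loess and below 0 with median centring, where the median over all genes was -0.095. Complexes II to IV with ATP synthase had the highest median, 0.30 over 42 genes with 31 above 0, and -0.099 with median centring. The subunits Cox7c (1.06), Uqcr, now Uqcr11 (0.90), Atp5e (0.76) and Uqcrh (0.73) were at the top. The ATP synthase subunits Atp5b (-0.67 ± 0.17) and Atp5a1 (-0.43 ± 0.21) and the succinate dehydrogenase subunit Sdhb (-0.40) were at the bottom, so Atp5e and Atp5b, of the same enzyme, stood on opposite sides. Respiratory complex I, where 30 of 37 genes lay above 0, had a median of 0.18, and -0.20 with median centring. In it the accessory subunits Ndufa2 (0.78 ± 0.29) and Ndufc1 (0.74 ± 0.19) contrasted with the core subunit Ndufs1 (-0.90 ± 0.29). Ndufs1 had a position of -0.02 in Eif4g3 siRNA cells and 0.88 in control cells, and Ndufa2 -1.07 and -1.86. For import genes the median was 0.20 (-0.091 with median centring). The intermembrane space chaperones Timm8b (0.81) and Timm13 (0.76) were at the top and the channel Tomm40 (-0.46) at the bottom. Mitochondrial ribosomal proteins had 0.15 (-0.19 with median centring), with 50 of 76 above 0, Mrpl52 highest (0.62) and Mrpl44 lowest (-0.36).

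Histone genes had a median of 0.27, 29 of 36 above 0, and -0.042 with median centring, beside -0.095 over all genes. After Hist1h2ab came H2afv, now H2az2 (0.72), and Hist1h2bc, now H2bc4 (0.62), and H2afx, now H2ax, which marks DNA breaks, was lowest (-0.54). The spliceosome list was divided like the respiratory chain, with a median of -0.098. Its ring-forming Lsm proteins Lsm5 (0.94) and Lsm7 (0.78) and the core protein Snrpg (0.73) stood opposite Prpf8 and Sf3b4. In the proteasome the lid subunit Shfm1, now Sem1 (0.70), stood opposite the lid subunit Psmd13 (-0.88) and the activator Psme4 (-0.80), around a median of -0.20. Among redox and iron genes (median -0.04) Cat was the lowest and Gpx4, which reduces lipid peroxides, the highest (0.76). Protein length was not analysed here, so these contrasts are described by name alone and any relation to length was not tested.

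No gene of the secreted signal and immune lists passed 2-fold in the difference, where 0.102% of all measured genes were higher and 0.628% lower. For chemokines, cytokines and growth factors the median was 0.17, 37 of 55 lay above 0, and it was -0.005 with median centring, beside -0.095 over all genes. The fibroblast growth factor gene Fgf7 (0.87 ± 0.30) and the chemokine genes Ccl25 (0.74) and Ccl8 (0.56) were highest, and Igfbp7, a secreted binding protein, was lowest (-0.68 ± 0.29). Interferon-stimulated genes had medians of 0.31 in heavy and 0.60 in light polysomes, and the median difference was -0.099 with 37 of 54 below 0. Ifi27 had 1.72 in heavy and 0.98 in light polysomes and a difference of 0.74 ± 0.20, whereas Lgals3bp had -0.16 and 0.83 and a difference of -0.99 ± 0.30. Isg15, a ubiquitin-like modifier, was high in both fractions (1.32 and 1.08) and differed by 0.24 ± 0.34, which is smaller than its spot error. Genes for MHC class I and antigen processing had a median of -0.15, with the class I heavy chain H2-D1 at -0.48 ± 0.21 and its light chain B2m at 0.18 ± 0.15.

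The remaining lists had medians between -0.25 and 0.05. Glycolysis and hypoxia genes had -0.24, with 33 of 40 below 0, but -0.03 relative to genes of the same mean position. Hk1 (-0.83 ± 0.16), Eno1 (-0.74) and Gapdh (-0.73) were lowest, while Tpi1 had 0.32. Lysosomal proteins (-0.20), sterol and fatty acid synthesis (-0.21) and splicing regulators (-0.13) had 39 of 56, 29 of 38 and 31 of 37 genes below 0. Relative to genes of the same mean position their medians were 0.07, -0.02 and -0.01. Initiation factors had a median of -0.091, with 34 of 53 below 0, Eif4a3, the helicase of the exon junction complex, at the low end (-0.92 ± 0.30) and the start codon factor Eif1 at the high end (0.44 ± 0.21). In mRNA decay genes, 29 of 52 lay above 0 around a median of 0.02, although the deadenylase scaffold Cnot1 (-1.02 ± 0.22) and the exosome helicase Skiv2l (-1.10 ± 0.30) were lower at 2-fold. With median centring the medians were -0.18 for mRNA decay, -0.31 for immediate early and 0.48 for peripheral tissue antigen genes, on the other side of 0. Growth factor receptors (-0.11), matrix proteases (-0.083), immediate early genes (0.05) and the 8 measured peripheral tissue antigen genes (-0.01) had 0 genes past 2-fold between them. Over all measured genes, 0.102% were higher and 0.628% lower.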

How the data were processed

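Per the file headers, Agilent Feature Extraction 10.5.1.1 made the deposited scanner output, which gives each spot's intensity in both dyes and a log10 ratio with its error. The log2 ratios in the value table of the authors equalled the software's ratio, with column medians of -0.088, -0.012 and 0.223 for top, light and heavy, and served as a check. Mean signals were corrected here with normexp (offset 50) and loess in limma 3.58.1 (R 4.3.3); spots of a probe, then measured probes of a gene, were averaged. Positions used Aquantile scaling of both dyes, over the heavy and light arrays for heavy over light and over all arrays for ratios over top. The offset pulls differences of dim genes towards 0. A gene was called at 2-fold, and 9 alternatives were run. Of 13686 genes, 12240 matched a current symbol. Tested on simulated data of 43379 spots, all 100 4-fold and 50% of 100 2-fold differences were called, with 18 false calls among 21150 unchanged spots. A 2-fold difference lies on the cut itself, so a share near 50% is set by the design. The simulated noise was independent between spots and held no spread between cultures, gradients or arrays, so the false calls do not carry over to these arrays. Named were the Eif4g genes; the 15 highest and 15 lowest bright genes past 2-fold; the 10 highest and 10 lowest by the probe nearest 0; 6 of each pattern of opposite ratios; the 3 highest and 3 lowest of each list; and measured collagens and integrins; a few further list members are named beside them. Members and lists were chosen with earlier results of these data known.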

Additional observations from a re-analysis of the deposited data

Results flagged for a closer look

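For 33 of the 44 genes named by the rules on single genes, the ratios in heavy and light polysomes lay in opposite directions, each beyond its spot error. With 1 array per fraction that contrast was not tested, and the members of both groups were picked partly for it.

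In 18 of them the ratio was below 0 in heavy and above 0 in light polysomes. The heavy minus light difference was -1.75 for Zbtb20, -1.75 for Cat, -1.50 for Col4a2, -1.49 for Dctn1, -1.46 for Aebp1 and -1.42 for Aars. It was -1.39 for Prpf8, -1.38 for Sec31a, -1.38 for Col5a2, -1.36 for Ttf2, -1.35 for Capn2 and -1.34 for Msn. It was -1.31 for Iars, -1.25 for Bgn, -1.24 for Abcf2, -1.23 for Ints4, -1.12 for Kif20a and -1.12 for Dhx15.

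In the other 15 the ratio was above 0 in heavy and below 0 in light polysomes. The difference was 1.21 for Hist1h2ab, 1.06 for Cox7c, 1.03 for Lyrm2, 1.0 for Crebzf, 0.95 for Plac9 and 0.93 for Ctnnbip1. It was 0.91 for Crip1, 0.90 for Rps21, 0.83 for Tmsb10, 0.80 for Selm and 0.79 for Fxc1. It was 0.78 for Ndufa2, 0.78 for Dusp3, 0.73 for Uqcrh and 0.71 for Il11ra1.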

How the results depend on the processing

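No paired analysis was possible because each fraction had 1 array. The counts moved most. Higher and lower genes at 2-fold (14 and 86) became 63 and 138 with a normexp offset of 0, 134 and 155 with loess on the software's processed signals, 115 and 170 with the software's own ratio, and 1127 and 432 with median centring, while without background subtraction 22 were higher. Higher genes were 14.0% of the calls, against 31.3%, 46.4%, 40.4% and 72.3% under the first 4 of these. At 1.5-fold the counts were 367 and 799 and at 3-fold 2 and 2. Median centring kept 85 of the 86 lower and 5 of the 14 higher genes, and there the heavy and light ratios correlated at -0.06, against 0.45 after loess.

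Of 26 named genes past 2-fold, 21 kept the call with median centring and 20 without the background filter. With median centring Eif4g3 had -1.09, and the list medians were -0.754 for aminoacyl-tRNA synthetases, -0.696 for lamins and nuclear pore and -0.69 for cytosolic chaperones. Among medians of 0.1 or more in size, those that turned were -0.229 for large and -0.135 for small ribosomal subunits, -0.188 for mitochondrial ribosomal proteins, -0.199 for complex I, -0.099 for complexes II to IV, -0.042 for histones, -0.091 for mitochondrial import, -0.005 for chemokines and 0.147 for epithelial markers. The median over all genes was -0.095 under that setting. Collagens had -0.338 without the background filter.

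Relative to genes of the same mean position, an alternative chosen after seeing the data, the medians were -0.245 for collagens, -0.061 for synthetases, -0.136 for lamins and -0.068 for chaperones. Of the medians at or below -0.1, those that turned were 0.062 for proteoglycans, 0.028 for integrins and adhesion, 0.084 for MHC class I, 0.067 for lysosomal, 0.141 for proteasome, 0.037 for cell cycle genes and 0.123 for epithelial markers. Smaller medians below 0 turned as well. They became 0.058 for chaperones of the endoplasmic reticulum, 0.081 for matrix proteases, 0.013 for initiation factors, 0.03 for elongation factors and 0.001 for peripheral tissue antigens. The ratio of position SDs, 0.62, lay between 0.62 and 0.68 under the other backgrounds and normalizations. Dim genes limit these values, since only 13686 of 27745 gene names were above background on both arrays.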
